A study of Mus musculus with 20 samples.

Results

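The lymphocyte genes of the liver were followed here as 37 named genes: 29 genes of T and natural killer (NK) cells and 8 genes of B and plasma cells. A gene was taken when its name in the count table equalled a name on the list. All 37 were found among the 55421 gene entries. The samples were 20 livers of wildtype C57BL/6 mice in 4 groups of 5. The labels give them as female, while the study's text calls them male in one place and female in another. Each mouse had received, retro-orbitally at 6 months of age, an adeno-associated virus of serotype 8 (AAV8) that carried SaCas9 under the Tbg promoter, which is active in hepatocytes, and a guide RNA under the U6 promoter. The guide was directed either against Rosa26, a safe-harbour locus that served as the control, or against HIRA, the gene of a histone chaperone that deposits histone H3.3. The livers were taken either 3 weeks or 6 months later. Every group therefore carried the virus and the nuclease, and no uninjected liver was analysed here. The later livers also came from older mice, so that time since injection and age cannot be told apart. The 2 questions were whether RNA of lymphocytes differed between the time points and whether it differed between the guides.

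T cells recognise peptides through the T cell receptor, whose signal passes through the CD3 chains and the kinases Lck and Zap70, and CD8 T cells and NK cells kill target cells with perforin and granzymes. B cells carry membrane immunoglobulin with the CD79 chains as their receptor. After activation they can become plasma cells, which secrete immunoglobulin in large amounts and may switch the heavy chain from IgM to IgG or IgA. The normal liver holds resident and passing lymphocytes of all these kinds, and in a whole-liver library their RNA is diluted by that of hepatocytes. In such bulk samples, fewer cells of a type and less RNA per cell cannot be told apart.

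Total counts ranged from 19916430 to 24079736 per library. The targeted gene Hira had 128 to 171 counts in the Rosa26 livers and 87 to 127 in the HIRA livers at 3 weeks, without overlap. At 6 months it had 105 to 157 and 109 to 136 counts, which overlapped. The study reports loss of HIRA protein with the CRISPR knockout by western blot, which these RNA counts do not measure. The hepatocyte gene Alb had 1515073 to 2961740 counts in every library. The library labelled HIRA 6 months replicate 5 went against its female label, with 9 counts of Xist and 2041 counts over 4 Y-linked genes, where the other 19 libraries had 6286 to 8436 and 0 to 13. Rosa26 6 months replicate 3 stood apart in its immune genes, with 820 counts of the pan-leukocyte gene Ptprc and 9464 of the Kupffer cell gene Clec4f. The counts and medians over the T and NK cell and the B and plasma cell members are also given without these libraries where they moved.

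The level of the 37 genes spanned a wide range. Per kilobase of exon, the mean level over the 20 libraries was highest for Igkc, the constant region of the kappa light chain, at 99.7 CPM per kb, where CPM is the count per 1000000 counts of a library after TMM scaling. Ighm, the constant region of the IgM heavy chain, followed at 36.4 CPM per kb. The chemokine gene Ccl5 stood at 4.81, and Jchain, the joining chain of secreted IgM and IgA polymers, at 4.59 CPM per kb. The lowest level was that of the checkpoint receptor gene Ctla4 at 0.0399 CPM per kb, below the costimulator gene Cd28 and Ifng, both at 0.0688, and the checkpoint receptor gene Pdcd1 (PD-1) at 0.114.

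Igkc was the most abundant member per kilobase, though Ighm had more counts, and the one with the smallest p-value between the time points. It lies at chr6:70726435-70726966 (GRCm38, plus strand) as 1 exon. The first 150 bases of that exon, all coding, are shown in lower case because this constant region is shared by every kappa chain, whichever variable segment the B cell has joined to it:
Igkc: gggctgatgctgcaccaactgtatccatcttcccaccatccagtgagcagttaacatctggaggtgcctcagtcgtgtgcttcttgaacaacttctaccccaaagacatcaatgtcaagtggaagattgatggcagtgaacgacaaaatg

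Immunoglobulin RNA was higher in the 6-month livers. In the Rosa26 livers at 3 weeks, Igkc had 617, 195, 405, 269 and 172 counts in replicates 1 to 5, and in the HIRA livers 481, 293, 241, 341 and 296. At 6 months the Rosa26 livers had 422, 949, 1823, 2325 and 3835 counts and the HIRA livers 5000, 2071, 1844, 1464 and 826. The 5 HIRA livers at 6 months all lay above the 5 at 3 weeks, whereas among the Rosa26 livers replicate 1 at 6 months lay below replicate 1 at 3 weeks. Igkc rose by 2.53 ± 0.35 log2 units averaged over both guides (SE from 10 livers per time). The adjusted p was 0.00103 by the edgeR quasi-likelihood test with Benjamini-Hochberg adjustment over 22867 genes.

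Ighm (ENSMUSG00000076617.9, chr12:113418558-113422730, minus strand) had 1024, 473, 494, 472 and 387 counts in the Rosa26 livers and 791, 423, 416, 507 and 457 in the HIRA livers at 3 weeks. At 6 months the counts were 787, 1854, 2612, 1420 and 6223 in the Rosa26 livers and 4419, 1795, 2968, 2180 and 905 in the HIRA livers. The HIRA groups did not overlap, and the Rosa26 groups did, through the high replicate 1 at 3 weeks and the low replicate 1 at 6 months. Over time Ighm rose by 2.11 ± 0.31 log2 units (SE), and its edgeR adjusted p was 0.00191.

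Jchain (ENSMUSG00000067149.6, chr5:88519809-88527891, minus strand) marks cells that secrete polymeric immunoglobulin. Its counts at 3 weeks were 143, 42, 86, 109 and 54 in the Rosa26 livers and 121, 72, 46, 101 and 59 in the HIRA livers. At 6 months they were 93, 301, 355, 452 and 979 in the Rosa26 livers and 816, 392, 509, 354 and 94 in the HIRA livers. Each 6-month group had 1 liver, Rosa26 replicate 1 and HIRA replicate 5, within the range of its 3-week group. Jchain rose by 2.30 ± 0.36 log2 units, at an edgeR adjusted p of 0.00272.

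Of the 37 members, 4 were called higher at 6 months than at 3 weeks over both guides, by an adjusted p under 0.05 and a log2 fold change above 1, and none was called lower. Over all 22867 genes tested, 0.59% were called in either direction and 0.459% were called higher. The called members were Igkc, Ighm, Jchain and Gzmk. Gzmk, with 6 counts in all at 3 weeks, had passed the count filter only through the 6-month livers, so that its call is no support for the members' share. All 4 kept their calls when each of the 20 libraries was left out in turn. The range of the adjusted p was 0.000328 to 0.00347 for Igkc, 0.00053 to 0.00666 for Ighm, 0.000477 to 0.00947 for Jchain and 0.00802 to 0.0455 for Gzmk.

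**Figure D1:**
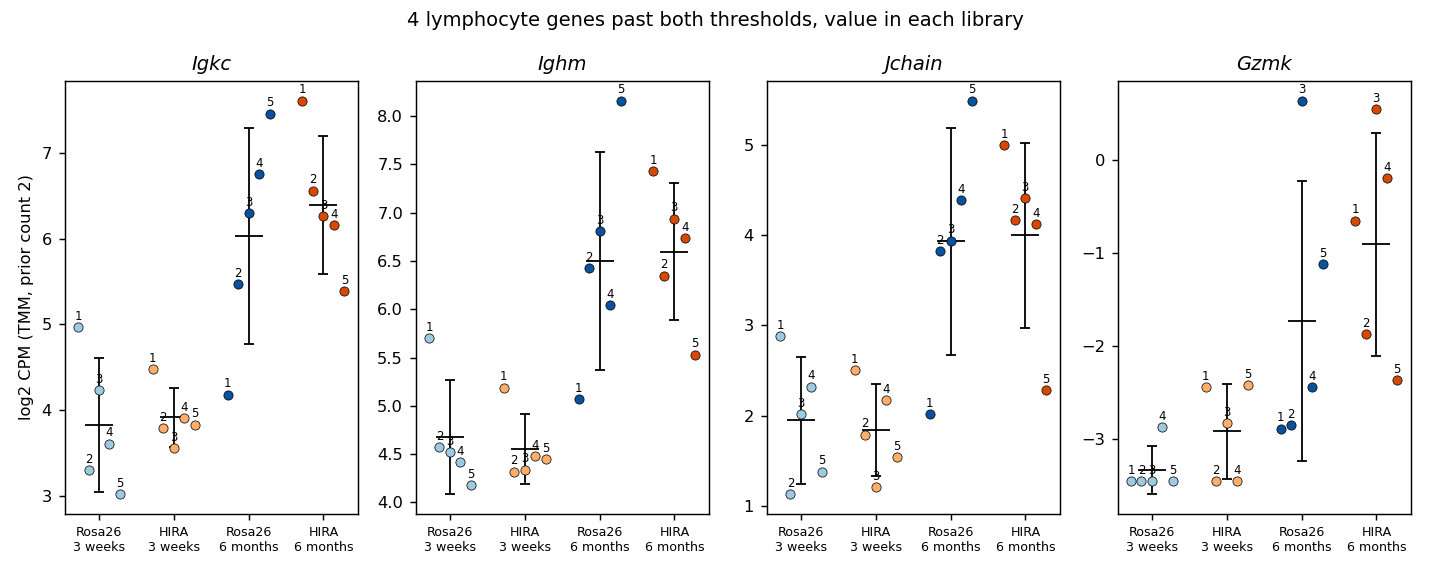
Log2 CPM (TMM-normalised, prior count of 2) of Igkc, Ighm, Jchain and Gzmk in each liver by guide and time after injection, with the replicate number at each point, the line at the group mean and bars of 1 SD (n = 5). Igkc, Ighm and Jchain lay higher in most 6-month livers, with Rosa26 6 months replicate 1 and HIRA 6 months replicate 5 lowest of their groups, and Gzmk had 0 to 2 counts in every 3-week liver.

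The promoter of Jchain (the 250 bases before its RefSeq start, chr5:88527898-88528147, GRCm38.p6, minus strand) is shown because Jchain is the called member that is not an immunoglobulin chain and is a gene of antibody-secreting cells. The capitals mark the 3 matches to CANNTG, the E-box, to which basic helix-loop-helix factors such as those of B cell development bind:
Jchain promoter: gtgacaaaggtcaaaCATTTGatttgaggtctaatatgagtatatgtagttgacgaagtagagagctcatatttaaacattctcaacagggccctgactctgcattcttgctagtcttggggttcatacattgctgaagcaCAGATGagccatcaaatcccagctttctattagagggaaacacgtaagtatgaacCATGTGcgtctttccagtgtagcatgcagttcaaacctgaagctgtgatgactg

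An entry in the RefSeq promoter table, which covers 300 bases per gene, was found for 23 of the 37 members. On either strand, CANNTG occurred in 21 of the 23 windows and in 75.0% of 27025 genes. The octamer ATGCAAAT, the site of the Oct factors that pair with the coactivator encoded by Pou2af1, occurred in 0 of 23 and in 1.97% of all genes. The Runx-type site TGTGGT occurred in 9 of 23 and in 18.9% of all genes, namely in Cxcr3, Cxcr6, Gzma, Gzmb, Lck, Nkg7, Prf1, Xcl1 and Zap70. A CANNTG match can overlap a match to either of the other motifs, and such overlaps were not removed. A match is a description of the window only.

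The other B lineage members had smaller differences between the time points. Mzb1, an endoplasmic reticulum cochaperone of antibody-secreting cells, had 2 to 6 counts in the 3-week livers and 4 to 24 in the 6-month livers, which overlapped. Cd79a and Cd79b encode the signalling chains of the B cell receptor. Cd79a had 38 to 127 counts at 3 weeks and 45 to 205 at 6 months, and Cd79b 41 to 113 and 41 to 186. Ms4a1, which encodes CD20, had 16 to 57 and 13 to 76, and Pou2af1 had 12 to 51 and 17 to 84. None of these 5 genes passed the test over time, but the result of Mzb1 depended on the processing. Mzb1 passed the adjusted p by DESeq2, on the authors' FPKM values and without both 6-month libraries numbered 3. Pou2af1 passed it by DESeq2, and Mzb1 and Ms4a1 did without HIRA 6 months replicate 5. The counts of Igkc per count of Cd79a had a median of 5.85 (range 3.91 to 12.1) in the Rosa26 livers and 3.79 (3.53 to 4.67) in the HIRA livers at 3 weeks. At 6 months the medians were 18.6 (5.41 to 51.7) and 16.9 (11.6 to 26.2). The ratio did not overlap between times in the HIRA livers and overlapped in the Rosa26 livers.

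Further immunoglobulin and plasma cell genes outside the 37, a list of 13, moved the same way: 8 of 13 were past an adjusted p of 0.05, each higher at 6 months, with a median log2 fold change of 1.24 for the list against 0.022 for all genes tested. The share of all genes past that adjusted p alone, in either direction, was 1.36%. Ighg1, the constant region of IgG1, had 7 to 24 counts in each 3-week liver. At 6 months it had 17, 17, 290, 245 and 403 counts in the Rosa26 livers and 3000, 381, 678, 222 and 448 in the HIRA livers. It was high in all 5 HIRA livers and in 3 of 5 Rosa26 livers, and rose by 4.69 ± 0.60 log2 units (SE), at an edgeR adjusted p of 0.000411. Igha, the constant region of IgA, rose by 1.55 ± 0.33 (adjusted p = 0.0225), and the lambda constant region Iglc2 by 1.24 ± 0.26 (adjusted p = 0.0229). Ighg2b and Ighg2c rose by 2.11 ± 0.44 and 3.16 ± 0.65 (adjusted p = 0.0211 and 0.0202). These are paralogues whose sequences were not compared here, so the split of reads between them is uncertain. The sequences of the lambda constant regions were not compared either. Irf4, Iglc1 and Eaf2 were the remaining genes of the 8. Without both 6-month libraries numbered 3, 7 of the 13 were past the adjusted p.

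The heavy chain classes were compared as the share of IgG and IgA counts in all heavy chain constant region counts. The switched share was 30.8% ± 5.24 (SD, n = 5) in the Rosa26 livers and 32.2% ± 6.54 in the HIRA livers at 3 weeks. At 6 months it was 31.2% ± 20.7 in the Rosa26 livers, from 14.0% to 65.5%, and 45.2% ± 10.5 in the HIRA livers, from 32.8% to 57.8%. The groups overlapped at both times, and the spread among the Rosa26 livers at 6 months exceeded the differences between the group means.

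**Figure D2:**
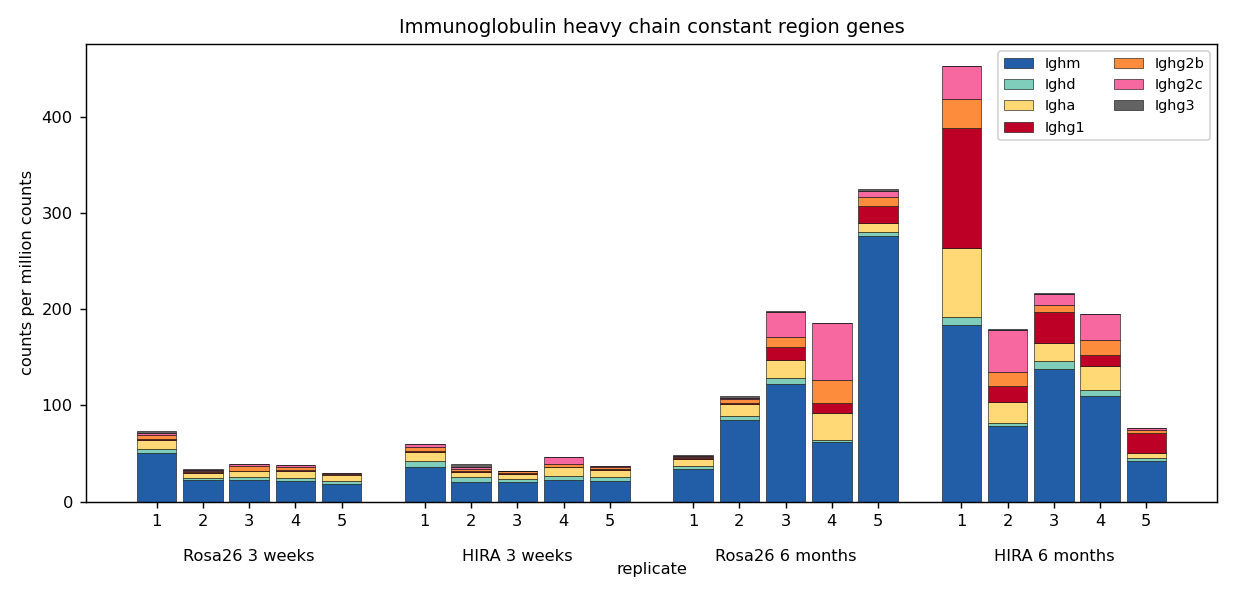
Counts of each heavy chain constant region gene per 1000000 counts of the library (vertical axis, without TMM scaling), stacked, by group and replicate (horizontal axis). Ighm was the most abundant class in each 3-week liver, and the IgG and IgA share at 6 months ranged from 14.0% to 65.5% in the Rosa26 livers and from 32.8% to 57.8% in the HIRA livers.

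Variable segments were counted as separate genes in the table. Over 185 heavy chain segments (Ighv), the median summed count per liver was 150 and 110 at 3 weeks (Rosa26 and HIRA) and 562 and 626 at 6 months. The median number of heavy chain segments with a count was 57, 48, 55 and 66 in the same order of groups. Over 160 kappa segments (Igkv), the median summed counts were 238 and 192 at 3 weeks and 1352 and 1310 at 6 months, with 52, 62, 68 and 71 segments detected. At 3 weeks the leading Ighv segment held 5.48% to 11.1% of the Ighv counts of a liver. In the 6-month livers it held 9.35% to 33.0% in the Rosa26 livers and 13.4% to 24.0% in the HIRA livers. The leading Igkv segment held 7.66% to 14.8% of the Igkv counts in the Rosa26 livers and 9.38% to 27.4% in the HIRA livers at 3 weeks, and 11.8% to 39.3% and 13.9% to 20.8% at 6 months, so that these ranges overlapped between times. At 6 months Ighv14-2 led with 33.0% in Rosa26 replicate 5, Ighv8-8 with 24.0% in HIRA replicate 4 and the kappa segment Igkv5-39 with 39.3% in Rosa26 replicate 3, the last of which led in other livers of both times too. These 3 segments were chosen after their values were seen. Many segments are similar in sequence, so the assignment of reads to a segment is uncertain.

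Among the 29 T and NK cell members, only Gzmk was called over time. All 29 had a log2 fold change above 0, against 54.1% of all genes tested, with a median of 0.75. At an unadjusted p under 0.05, 19 of the 29 were higher, against 8.28% of all genes. Without Gzmk and Ctla4, which passed the count filter only through the 6-month livers, all 27 were above 0, 17 had such a p and the median was 0.74. Their sizes rested in part on replicate 3 of each 6-month group. With both of these libraries left out, the median was 0.32, 26 of 29 were above 0 and 5 had an unadjusted p under 0.05. For the 8 B and plasma cell members, the median was 1.1 and 8 of 8 were higher at an unadjusted p under 0.05. Without the libraries numbered 3 the median was 1.14. Then 5 of 6 B cell genes and 2 of 2 plasma cell genes had such a p. These libraries were chosen after seeing the data and held the highest value of none of the 8 members. Leaving them out is thus not an even comparison of the 2 lineages. The 37 genes share libraries and are not independent of each other.

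Gzmk encodes granzyme K, a serine protease of memory CD8 T cells and NK cells (ENSMUSG00000042385.14, chr13:113171608-113225908, minus strand). It had 0, 0, 0, 1 and 0 counts in the Rosa26 livers and 2, 0, 1, 0 and 2 in the HIRA livers at 3 weeks. In the 6-month livers it had 1, 1, 34, 2 and 8 counts in the Rosa26 livers and 14, 4, 33, 16 and 2 in the HIRA livers. The HIRA groups did not overlap in normalised CPM, although HIRA 6 months replicate 5 had the same 2 counts as the highest 3-week livers, and the Rosa26 groups overlapped. The fitted rise of Gzmk was 4.15 ± 0.82 log2 units (SE), at an edgeR adjusted p of 0.0142, a size that depends on the prior count since the 3-week livers held 6 counts in all. Per library count, the summed 115 counts at 6 months were 18.5 times the summed 6 at 3 weeks, with an exact 95% interval of 8.23 to 51.3 that covers counting error only. Gzmk had entered the test only through its 6-month counts. On the authors' FPKM values the adjusted p was 0.577 with a pseudocount of 1 and 0.465 with 0.1.

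Esm1, an endothelial gene on the other strand, lies within the span of Gzmk and was named after its values were seen. Its total was 1150% of that of Gzmk, and it rose over time too, by 1.77 ± 0.43 (SE, edgeR adjusted p = 0.0397). The 2 genes share 0 exonic bases. The 6-month Rosa26 liver with the most Gzmk, replicate 3, had 34 counts of Gzmk and 59 of Esm1, where Esm1 had 12 to 59 counts in the Rosa26 livers at 3 weeks. The 6-month HIRA liver with the most Gzmk, also replicate 3, had 33 counts of Gzmk and 215 of Esm1, where Esm1 had 7 to 53 counts in the HIRA livers at 3 weeks. The part of Esm1 reads in the Gzmk counts was not tested.

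None of the other 5 cytotoxic members passed the test over time. Gzmb and Gzma, the granzymes B and A, had 213 and 198 counts summed over the 10 livers at 3 weeks and 313 and 263 at 6 months. Prf1, which encodes perforin, had 115 and 140. Ifng, the gene of interferon gamma, had 18 counts at 3 weeks and 21 at 6 months in all, with 0 to 5 per liver, and these low counts limit what could be detected. Ifng also shares 25.9% of its exonic bases with the entry Gm49751, which makes its counts uncertain. Nkg7, a granule membrane protein of cytotoxic cells, had 14 to 63 counts at 3 weeks and 18 to 153 at 6 months. Its 2 highest livers were replicate 3 of each 6-month group, with 153 and 147 counts. The log2 fold changes of these genes ran from 0.13 for Ifng to 0.75 for Nkg7.

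The 7 genes of the T cell receptor and CD3 chains had log2 fold changes of 0.26 to 1.05 over time, with a median of 0.86, and 0 of 7 were called. Without both 6-month libraries numbered 3 the median was 0.24. Cd3e encodes the CD3 epsilon chain. It had 22, 12, 16, 27 and 16 counts in the Rosa26 livers and 32, 22, 40, 22 and 32 in the HIRA livers at 3 weeks. Counts at 6 months were 31, 14, 94, 9 and 48 in the Rosa26 livers and 78, 44, 141, 70 and 16 in the HIRA livers. The 6-month livers thus held both the lowest and the highest values, and the groups overlapped. Trac, the alpha chain constant region, was also highest in the 2 livers numbered 3 at 6 months, with 104 counts in Rosa26 and 97 in HIRA, against 8 to 32 counts in the 3-week livers. Cd247, the CD3 zeta chain, shares 56.4% of its exonic bases with Pou2f1 on the other strand, and since the strand setting of the counting is not given in the sources used here, its counts are uncertain.

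The beta chain has 2 constant region genes, Trbc1 (chr6:41538218-41539881) and Trbc2 (chr6:41546730-41548352), of which a T cell uses 1. Their sequences decide how well reads can be told apart, so a stretch of 100 coding bases from exon 3 of each is shown, from chr6:41539236-41539335 and chr6:41547779-41547878 (GRCm38, plus strand), with capitals at the bases that differ:
Trbc1: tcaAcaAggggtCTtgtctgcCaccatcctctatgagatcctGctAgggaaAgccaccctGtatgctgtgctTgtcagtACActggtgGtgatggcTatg
Trbc2: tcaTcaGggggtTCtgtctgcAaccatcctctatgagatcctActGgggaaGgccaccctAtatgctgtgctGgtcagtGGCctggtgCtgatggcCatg

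The 2 coding sequences were identical at 488 of the 512 bases compared (95.3%). The first 259 bases did not differ at all, and 15 of the 24 differences lay in the stretch shown. A read from the identical stretch cannot be assigned to either gene, so the counts of each are uncertain. Trbc1 had 8 to 38 counts at 3 weeks and 5 to 70 at 6 months, and Trbc2 had 16 to 55 and 11 to 98. Neither passed the test over time. Counts on beta chain variable segments (Trbv, 35 genes) had medians of 11 and 15 per liver at 3 weeks and 15 and 31 at 6 months, and the 6-month livers ranged from 6 to 57.

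The coreceptor genes Cd8a, Cd8b1 and Cd4 had a median log2 fold change of 0.96 over time, and 0.41 without the libraries numbered 3, and 0 of 3 were called. Cd8a had 3 to 41 counts at 3 weeks, and 20, 7, 112, 8 and 20 in the Rosa26 and 70, 38, 125, 116 and 9 in the HIRA livers at 6 months. It lay above the 3-week range in 4 of the 10 livers at 6 months, Rosa26 replicate 3 and HIRA replicates 1, 3 and 4. Cd4 had 10 to 35 counts at 3 weeks and 11 to 103 at 6 months. The kinase gene Lck was not called either, and neither was any of the 7 surface and checkpoint receptor genes Cd2, Cd5, Cd27, Cd28, Icos, Ctla4 and Pdcd1, whose median was 0.99, and 0.48 without the libraries numbered 3. Pdcd1 had 0 to 4 counts at 3 weeks and 0 to 35 at 6 months, of which the libraries numbered 3 held 35 and 21. Ctla4 had 0 to 2 counts at 3 weeks and 0 to 8 at 6 months, and like Gzmk it entered the test only through its 6-month counts.

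Of the 4 chemokine system members, Ccl5, a chemokine of activated T and NK cells, was the most abundant. It had 27 to 90 counts at 3 weeks, 78, 50, 421, 64 and 77 in the Rosa26 livers at 6 months and 146, 103, 339, 160 and 53 in the HIRA livers. Apart from replicate 3, the 6-month Rosa26 livers lay within the 3-week range. Xcl1 shares 18.7% of its exonic bases with Gm20743 on the other strand. Ccl5, Xcl1 and the receptor genes Cxcr3 and Cxcr6 had log2 fold changes of 0.54 to 1.27 with a median of 0.73, or 0.31 without the libraries numbered 3, and 0 of 4 were called. Among 10 partner chemokine and receptor genes outside the 37, none was called, with a median of 0.49 that turned to −0.04 without both 6-month libraries numbered 3, where 4 of 10 were above 0. Among 16 targets of interferon gamma and class II genes none was called, with a median of 0.18, and 0.06 without those libraries.

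The libraries with the highest T and NK cell RNA were not those with the highest B lineage RNA. Of the 29 T and NK cell members, 14 had their highest CPM of the 20 libraries in HIRA 6 months replicate 3 and 13 in Rosa26 6 months replicate 3. The remaining 2 had it in HIRA 6 months replicate 4. Of the 8 B and plasma cell members, 5 were highest in Rosa26 6 months replicate 5 and 3 in HIRA 6 months replicate 1. Summed over the 29 genes, the level was 25.2 to 46.3 CPM in the Rosa26 and 28.2 to 46.1 in the HIRA livers at 3 weeks. At 6 months it was 39.2, 31.0, 114.0, 36.0 and 53.7 CPM in the Rosa26 livers and 51.9, 43.1, 113.0, 74.5 and 20.7 in the HIRA livers. Zap70 alone made up 8.14% to 57.8% of this sum. Without it the 6-month sums were 26.3, 17.9, 90.7, 15.2 and 34.2 CPM in the Rosa26 livers and 47.6, 32.1, 97.5, 62.2 and 13.7 in the HIRA livers, and the 3-week sums 12.7 to 36.3. The 8 B lineage genes summed to 34.7 to 97.9 CPM over all livers at 3 weeks, and at 6 months to 64.7, 153, 219, 201 and 526 in the Rosa26 and 423, 205, 240, 213 and 99.2 in the HIRA livers.

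**Figure D3:**
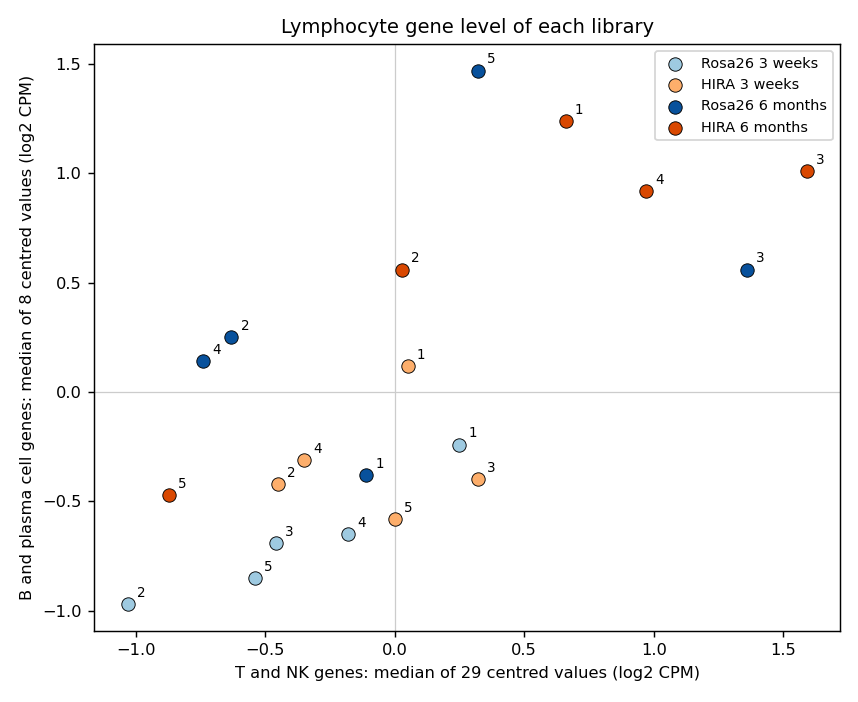
Each point is 1 liver with its replicate number, placed by the median centred log2 CPM over the 29 T and NK cell members (horizontal axis) and over the 8 B and plasma cell members (vertical axis), coloured by group. Replicate 3 of each 6-month group lay farthest to the right (1.36 and 1.59), and Rosa26 6 months replicate 5 lay highest (1.47).

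The spread among livers of a group was compared as a description, with no test. The median SD of log2 CPM of the T and NK cell members was 0.62 and 0.44 within the 3-week groups and 1.02 and 1.04 within the 6-month groups (Rosa26 and HIRA). For the B and plasma cell members it was 0.27 and 0.38, then 0.82 and 0.78. Over 15750 genes in the same range of levels, it was 0.27, 0.25, 0.29 and 0.36. Without replicate 3, the T and NK cell value in the Rosa26 livers at 6 months was 0.57, below that at 3 weeks, and the B and plasma cell value was 0.91. In the HIRA livers at 6 months the T and NK cell value was 0.93 without replicate 3 and 0.70 without replicate 5, and the B and plasma cell value was 0.80 and 0.46. The wider T and NK cell spread in the Rosa26 livers at 6 months thus rested on replicate 3.

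Some members of 1 lineage deviated together from their group means over the 20 livers. For 10 pairs of genes, which did not include Zap70, Pearson's r of these deviations was computed with a permutation test within groups (100000 permutations, two-sided) and adjusted over the 10. Cd3e correlated with Cd8a at r = 0.92 (rho 0.94), with Nkg7 at 0.93 (rho 0.93) and with Lck at 0.93 (rho 0.91), each with permutation p = 1e-05, the smallest the permutations can give, and adjusted p = 2.5e-05. Without the 2 livers farthest from the median of Cd3e, HIRA 6 months replicate 5 and Rosa26 6 months replicate 4, these values were 0.91, 0.90 and 0.89. Without both 6-month livers numbered 3 they were 0.88, 0.89 and 0.89. Igkc and Jchain correlated at 0.91 (rho 0.86), and 0.84 without the 2 farthest livers. Cd79a and Ms4a1 correlated at 0.85 (rho 0.78, adjusted permutation p = 0.00065), and 0.75 without them. Between the lineages, Cd3e and Cd79a correlated at 0.76 (rho 0.71, adjusted permutation p = 0.0072), which fell short of the threshold without the 2 farthest livers (0.60, adjusted permutation p = 0.07). Without both 6-month livers numbered 3 it was 0.79 (adjusted permutation p = 0.0039). Within single groups the r of this pair ran from 0.06 to 0.87.

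Cd3e was also set against the pan-leukocyte gene Ptprc, which is not particular to other cells, and against the markers Clec4f and Hbb-bs. Cd3e correlated with Ptprc at 0.88 (rho 0.81, adjusted permutation p = 0.0002), and 0.82 without the 2 farthest livers. Within single groups this r ran from 0.16 to 0.97. With the Kupffer cell gene Clec4f the value was 0.69 (rho 0.61, adjusted permutation p = 0.023), and 0.59 without them (adjusted permutation p = 0.1). Without both 6-month livers numbered 3, the value was 0.79 with Ptprc and 0.63 with Clec4f (adjusted permutation p = 0.0037 and 0.018). With the red cell gene Hbb-bs it was 0.17 (rho 0.22, adjusted permutation p = 0.55), and Hbb-bs with Cd79a gave 0.35 (rho 0.22, adjusted permutation p = 0.22). Of 10 Kupffer cell and macrophage genes, only Timd4, a receptor of resident Kupffer cells, passed the test over time, and it fell by 1.02 ± 0.24 log2 units (SE), at an edgeR adjusted p of 0.0371. Without both 6-month libraries numbered 3, 0 of the 10 passed, and the list median turned from 0.22 to −0.26. The 10 genes summed to 453 to 756 CPM at 3 weeks, 277 to 1970 in the Rosa26 livers and 174 to 1180 in the HIRA livers at 6 months. Of 10 pan-leukocyte genes none was called, with a median of 0.38, and −0.06 without the libraries numbered 3. Of 5 red cell genes, Alas2 rose (1.30 ± 0.28, edgeR adjusted p = 0.0252), and their sum was 48.3 to 130 CPM at 3 weeks and 78.4 to 285 at 6 months. The part of blood content and of other leukocytes in the lymphocyte values was not tested.

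The remaining lists gave no gene past the test over time. They comprised 20 other T cell, 20 other NK and cytotoxic, 17 other B cell, 9 neutrophil, 6 dendritic cell, 6 sinusoidal endothelial, 6 stellate, 5 biliary, 6 hepatocyte, 4 adipose and 2 pancreatic genes. Their medians were 0.56 for other T cell genes, 0.11 for other NK and cytotoxic genes, 0.47 for other B cell genes and −0.12 for neutrophil genes, and lay between −0.33 and 0.21 for the rest. Without both 6-month libraries numbered 3 these medians were 0.24, −0.08, 0.34 and −0.81, and 1 sinusoidal gene, Stab2, passed the adjusted p as lower. Thy1, a T cell surface gene, had 20 to 77 counts at 3 weeks and 14 to 190 at 6 months.

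Within each guide, Igkc, Ighm and Jchain each had a log2 fold change above 2 over time, but fewer members were called. In the Rosa26 livers, 2 of 37 members were called higher at 6 months, against 0.162% of all genes called and 0.0787% called higher. These were Igkc (2.41 ± 0.49 SE, edgeR adjusted p = 0.0353) and Ighm (2.09 ± 0.44, adjusted p = 0.0436), with Jchain next (2.26 ± 0.50, adjusted p = 0.0538). In the HIRA livers, 1 of 37 was called, against 0.0569% of all genes and 0.0437% called higher. This was Igkc (2.65 ± 0.50, adjusted p = 0.0439), followed by Ighm (2.14 ± 0.44, adjusted p = 0.0789) and Jchain (2.34 ± 0.51, adjusted p = 0.105). These calls stood near the threshold: when each library was left out in turn, Igkc lost its call in 8 of 20 cases in the Rosa26 livers and in 10 of 20 in the HIRA livers. Ighm lost its call in 14 of 20 cases in the Rosa26 livers, with an adjusted p of up to 0.134. By DESeq2, 5 members were called in the Rosa26 livers and 3 in the HIRA livers, where it called 157 and 74 of all genes. The 5 included Gzmk, which entered the test only through its 6-month counts.

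**Figure D4:**
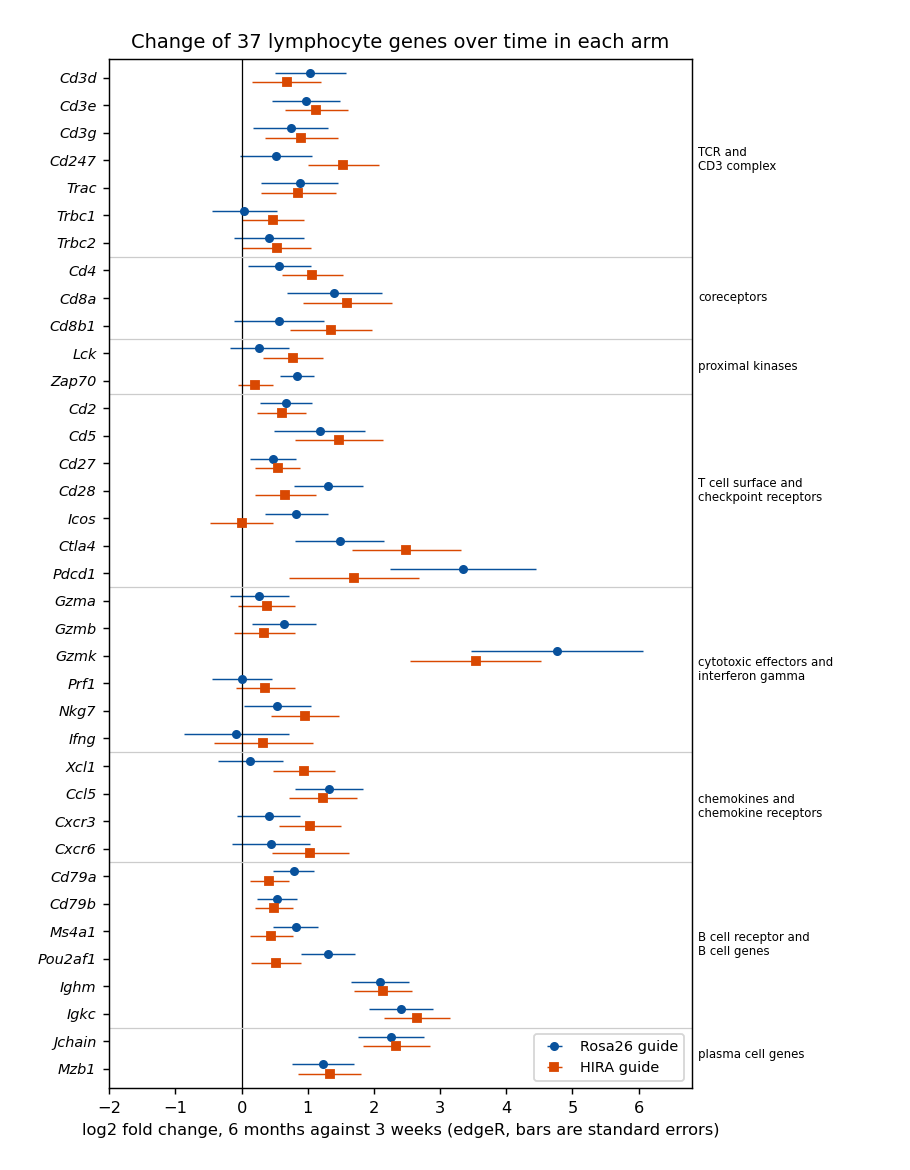
Log2 fold change from 3 weeks to 6 months (horizontal axis) of each of the 37 members, grouped by role, with the Rosa26 guide as circles, the HIRA guide as squares and bars of 1 SE. Most values lay above 0 in both arms, and Igkc, Ighm and Jchain lay between 2.09 and 2.65 with short bars beside those of Gzmk and Pdcd1.

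The log2 fold change over time was above 0 for 36 of 37 members in the Rosa26 livers, against 50.4% of all genes tested, and for 37 in the HIRA livers, against 55.4%, with medians of 0.79 and 0.90 against 0.003 and 0.033 for all genes. Groups did not overlap between times for 1 member in the Rosa26 livers (Zap70, higher at 6 months), where 1.68% of all genes were higher without overlap. In the HIRA livers 3 did not overlap (Igkc, Ighm and Gzmk), against 0.778% of all genes, or 2 without Gzmk, whose lowest 6-month and highest 3-week livers had 2 counts each. Without Rosa26 6 months replicate 3, the median of the 29 T and NK cell members in the Rosa26 livers was 0.08 and 15 of 29 were above 0. For the 8 B lineage members it was 1.28 with 0 called. Without HIRA 6 months replicate 3, the T and NK cell median in the HIRA livers was 0.4 with 26 of 29 above 0. Without HIRA 6 months replicate 5, the library that went against its label, 3 members were called in the HIRA livers and 7 over both guides, and the medians of the 37 were 1.13 and 0.94. The T and NK cell medians were then 1.13 and 0.88, and the B and plasma cell medians 1.11 and 1.19. The 7 called members included Gzmk and Ctla4, which entered the test only through their 6-month counts. Over all genes tested, leaving out 1 library gave 5 to 25 called in the HIRA livers and 73 to 181 over both guides.

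At 3 weeks, 0 of 37 members were called between the HIRA and Rosa26 guides (HIRA minus Rosa26 throughout), where 0.114% of all genes were. DESeq2 also called none, and 4 members (10.8%) had an unadjusted edgeR p under 0.05, near the 8.87% of all genes. The 3 smallest p-values were those of the B cell genes Cd79a, Pou2af1 and Cd79b. Of the 8 B and plasma cell members, 4 lay above 0 and 4 below, the latter being Ighm, Igkc, Jchain and Mzb1. Cd79a had 51, 38, 49, 46 and 44 counts in the Rosa26 livers and 127, 83, 66, 73 and 74 in the HIRA livers, and Cd79b had 56, 45, 56, 41 and 44 against 113, 83, 63, 73 and 68. Every HIRA liver lay above every Rosa26 liver for both genes. The log2 fold changes were 0.85 ± 0.31 for Cd79a (SE, edgeR adjusted p = 0.38), 0.68 ± 0.30 for Cd79b (adjusted p = 0.498) and 1.07 ± 0.41 for Pou2af1 (adjusted p = 0.413). In a fit to the 3-week groups alone, Cd79a had an adjusted p of 0.0494. Groups did not overlap for 3 members, Cd79a, Cd79b and the costimulator gene Icos, each higher with the HIRA guide, against 1.45% of all genes. Igkc stood at 16.0 ± 9.47 CPM (SD, n = 5) in the Rosa26 livers and at 15.3 ± 4.01 in the HIRA livers at that time. Of the 37 members, 26 had a log2 fold change above 0, against 49.0% of all genes, with a median of 0.24. The number above 0 was 34 without Rosa26 replicate 1 and 21 without Rosa26 replicate 2. The median ran from 0.1 to 0.55 when each library was left out. Of 17 other B cell genes, 16 were above 0, with a median of 0.55 and 0 past the adjusted p.

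**Figure D5:**
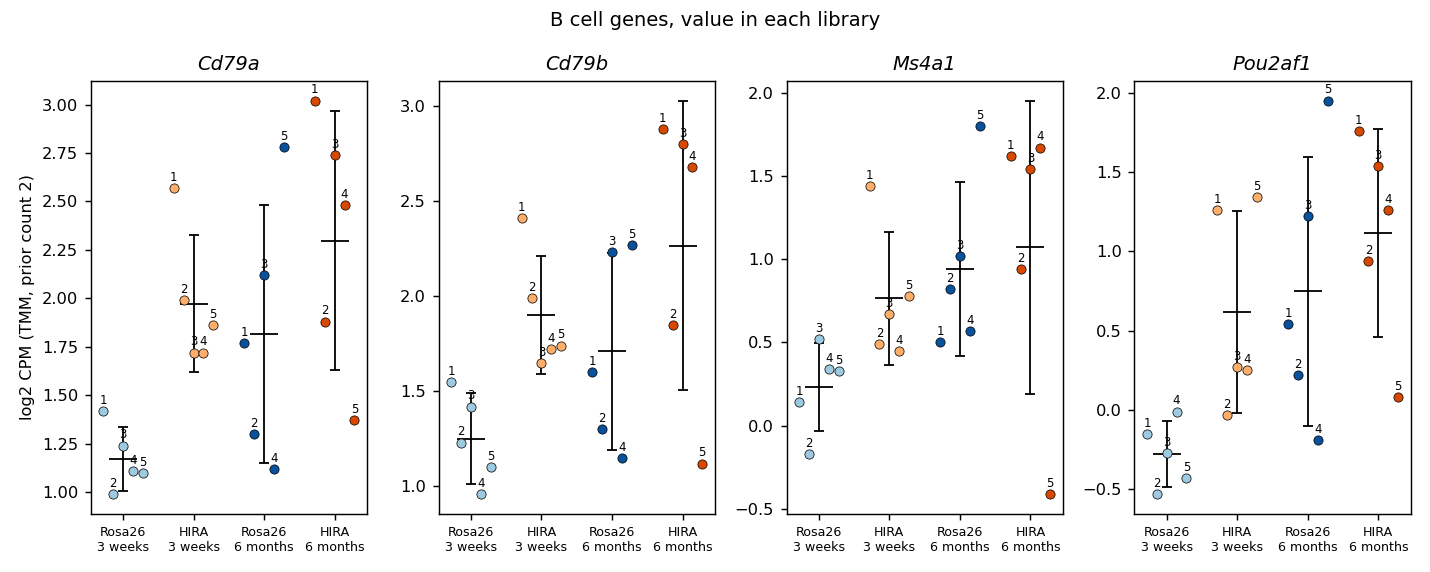
Log2 CPM (TMM-normalised, prior count of 2) of Cd79a, Cd79b, Ms4a1 and Pou2af1 in each liver by guide and time, with the replicate number at each point, the line at the group mean and bars of 1 SD (n = 5). At 3 weeks the 5 HIRA livers lay above the 5 Rosa26 livers for Cd79a and Cd79b, and at 6 months the guides overlapped for all 4 genes.

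At 6 months, 0 of 37 members were called between the guides, where 0.332% of all genes were, and 3 had an unadjusted p under 0.05, against 15.5% of all genes. DESeq2 gave 1 member an adjusted p under 0.05, Zap70, with a log2 fold change of −0.85 (adjusted p = 0.0322), short of the size threshold. Zap70 encodes the kinase that binds phosphorylated CD3 chains. It had 303, 281, 547, 450 and 425 counts in the Rosa26 livers and 108, 241, 383, 250 and 138 in the HIRA livers at 6 months. The groups overlapped through HIRA replicate 3 and the 2 lowest Rosa26 livers, and the edgeR estimate was −0.84 ± 0.26 (SE, adjusted p = 0.11). At 3 weeks Zap70 had 185 to 250 and 112 to 214 counts. The receptor chain gene Cd3e, by comparison, had 9 to 94 counts in the Rosa26 livers and 16 to 141 in the HIRA livers at 6 months. Cd8b1 (1.36 ± 0.61, adjusted p = 0.286) and Cd79b (0.64 ± 0.29, adjusted p = 0.285) had the next smallest p-values. Leaving out 1 library moved the value of Cd8b1 to between 0.92 and 2.15, the highest without Rosa26 6 months replicate 3. Igkc stood at 84.9 ± 61.2 CPM in the Rosa26 livers and 96.0 ± 58.8 in the HIRA livers (SD, n = 5), and Ighm at 117 ± 98.6 and 106 ± 47.3. Of the 37 members, 30 had a log2 fold change above 0 at 6 months, against 54.3% of all genes, with a median of 0.40. Among the T and NK cell members 25 of 29 were above 0, with a median of 0.44, which was 0.96 without Rosa26 replicate 3, 0.57 without both livers numbered 3 and 0.68 without HIRA replicate 5. Without HIRA replicate 3, only 22 of the 37 members were above 0. The median of the 37 ran from 0.14 to 0.82 when each library was left out. Other lists lay above 0 too, with 6 of 6 stellate (median 0.5), sinusoidal (0.33), dendritic (0.25) and hepatocyte (0.2) genes. Of the Kupffer cell and neutrophil genes, 2 of 10 and 2 of 9 lay above 0.

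The difference between the guides in the change over time was tested as an interaction, with 0 of 37 members called, where 0.0% of all genes were. No member had an unadjusted p under 0.05, where 6.62% of all genes did. The smallest p-values were those of Zap70 (−0.63 ± 0.37 SE, edgeR adjusted p = 0.809), Cd247 (1.02 ± 0.77, adjusted p = 0.859) and Pou2af1 (−0.79 ± 0.56, adjusted p = 0.843). The value of Cd247 was 1.65 without Rosa26 6 months replicate 3 and 0.47 without HIRA 6 months replicate 3, and that of Pou2af1 was −0.36 without Rosa26 6 months replicate 5. A different rise of immunoglobulin RNA with the HIRA guide was thus not detected at this number of livers, which does not show that the rises were equal. The time contrasts and the guide contrasts share their groups of livers and are not independent of each other.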

How the data were processed

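Poly(A) RNA of 20 mouse livers was sequenced from directional libraries (NEBNext Ultra II). Per the labels and the study's methods, reads were trimmed, aligned with STAR to mm10 and counted per gene. The study's methods name HOMER for the counting, whereas the submitters' processing notes name HTSeq and Cufflinks. The strand setting of the counting is not given in the sources used here. The authors deposited 2 tables of 55421 genes, raw counts and FPKM values, with a column for each of the 20 libraries. Of the gene identifiers, 54673 (98.7%) were found in the GENCODE M21 annotation (GRCm38), from which positions were taken.

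Counts were tested with the edgeR quasi-likelihood test (edgeR 4.0.16, R 4.3.3, TMM scaling) in 1 fit of 4 group means over all 20 libraries. Genes under 10 counts in total were dropped, which left 22867 tested, with 19916430 to 24079736 counts per library. A gene was called at a Benjamini-Hochberg adjusted p under 0.05 over all genes tested and a log2 fold change beyond 1. The 5 contrasts were time averaged over both guides, time within each guide and guide at each time, beside the interaction of guide and time. The p-values measure the spread between these livers, each taken as 1 mouse. Intervals cover counting error only.

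Alternatives were DESeq2 1.42.0, limma-voom (limma 3.58.1), other scalings and filters, a fit to only the groups compared, a replicate block, limma on log2(FPKM + 1) and log2(FPKM + 0.1), and leaving out each library. The fit and correlations without both 6-month libraries numbered 3, and the spreads without single 6-month libraries, were chosen after seeing the data. All 37 members passed the filter, Gzmk and Ctla4 through their 6-month counts.

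The members and the other lists were chosen with earlier results of these data known. Any member could be named with its counts. Test values were given for members with an adjusted p under 0.05 or the 3 of smallest p in a contrast, and for genes of the other lists past that adjusted p (up to 5 per list) or the 2 most abundant. Ptprc, Esm1 and the V segments named fell outside this rule and were named after their values were seen. On simulated counts for the time contrast (22432 genes), 198 of 200 changed genes were recovered, with 3 false calls. The changed genes had a log2 size of 2, where 98 of 100 were recovered, or 3, where 100 of 100 were. Recovery at smaller sizes, such as the members' median of 0.82 for time averaged over both guides, was not tested. It was not tested separately for genes of low count either.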

Additional observations from a re-analysis of the deposited data

Results flagged for a closer look

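In 148 sets of 5 replicate values (37 members in 4 groups), 10 had a liver whose gap to its nearest neighbour exceeded the critical share of the range (Dixon's test, 0.71), or 6.76 per 100 sets, where chance gives about 1 in 20. Of these, 7 lay in Rosa26 3 weeks, 2 in HIRA 3 weeks, 1 in Rosa26 6 months and 0 in HIRA 6 months.

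Replicate 1 of Rosa26 3 weeks was highest for Trbc2 at 1.53 log2 CPM (55 counts, others −0.27 to 0.22), for Cd5, a T cell surface receptor, at −0.07 (17 counts, others −1.78 to −1.3), and for Ighm at 5.7 (1024 counts, others 4.18 to 4.57). Replicate 1 of HIRA 3 weeks was highest for Ighm at 5.19 (791 counts, others 4.32 to 4.48). Both livers thus held the most IgM heavy chain RNA of their group at 3 weeks.

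Rosa26 6 months replicate 3 stood apart for Ccl5 at 4.19 log2 CPM (421 counts, others 1.28 to 1.86), the same liver that led its group in 27 of the 29 T and NK cell members. HIRA 3 weeks replicate 5 was lowest for Zap70 at 2.44 (112 counts, others 3.2 to 3.32), and Rosa26 3 weeks replicate 2 was lowest for Cxcr6 at −0.76 (10 counts, others 0.33 to 0.73).

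The other 3 rested on differences of 1 count: Ctla4 in Rosa26 3 weeks replicate 2 at −2.38 (2 counts, others −2.87 to −2.81), Pdcd1 in replicate 4 at −3.45 (0 counts, others −2.86 to −2.81) and Gzmk in replicate 4 at −2.87 (1 count, others at −3.45).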

How the results depend on the processing

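No log2 fold change of a single member given with its test changed sign under the alternatives run. The interaction median (0.11) turned negative when replicate 1 of Rosa26 3 weeks, replicate 1, 2 or 4 of Rosa26 6 months or replicate 3 of HIRA 6 months was left out, and without both 6-month libraries numbered 3 so did the time medians of the partner chemokine, other NK, pan-leukocyte, Kupffer cell, dendritic and stellate cell lists. Igkc, Ighm and Jchain stayed called for time averaged over both guides in every alternative, and Gzmk in every one that could be fitted except limma on FPKM. Counts of members called varied by tool. For time averaged over both guides, DESeq2 called 8 members (9 by adjusted p alone), and leaving out 1 library gave 4 to 7 (4 to 8). For time in the Rosa26 livers, DESeq2 called 5 (6 by adjusted p alone), while limma-voom, the fit to only the groups compared, both FPKM fits and the fit without both libraries numbered 3 called 0, and leaving out 1 library gave 0 to 3. For time in the HIRA livers, DESeq2 and the fit with no filter called 3, the groups compared alone 2, limma-voom and both FPKM fits 0, and leaving out 1 library gave 0 to 3. Between guides, Cd79a at 3 weeks was the 1 member past the adjusted p in the groups compared alone, and Zap70 at 6 months the 1 in DESeq2; leaving out 1 library gave 0 in both and in the interaction. The median log2 fold change of the 37 ranged under leaving out 1 library from 0.56 to 0.94 (both guides), 0.17 to 0.92 (Rosa26), 0.43 to 1.13 (HIRA), 0.1 to 0.55 (guide at 3 weeks), 0.14 to 0.82 (guide at 6 months) and −0.16 to 0.58 (interaction). The correlation of Cd3e with Cd79a moved from 0.76 to 0.6 and with Clec4f from 0.69 to 0.59 without the 2 farthest livers. The cause was not tested for any of these.

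All-gene counts past both thresholds also moved. Leaving out 1 library gave 73 to 181 for time averaged, 1 to 83 for time in the Rosa26 livers, 5 to 25 for time in the HIRA livers, 3 to 43 for the guide at 3 weeks and 18 to 109 at 6 months. For time averaged they were 135 in the main test and 204 by DESeq2, 66 by limma-voom, and 16 and 45 on FPKM with pseudocounts of 1 and 0.1. For time in the Rosa26 livers they were 37, against 157 by DESeq2, 67 in the groups compared alone, 5 and 7 on FPKM and 13 without the libraries numbered 3. For time in the HIRA livers they were 13, against 74, 6 by limma-voom, 25 with no filter, 8 in the groups compared alone, 3 and 6 on FPKM and 24 without the libraries numbered 3. For the guide at 3 weeks they were 26, against 64, 13 by limma-voom, 61 in the groups compared alone, and 8 and 14 on FPKM. At 6 months they were 76, against 127, 0 in the groups compared alone, 19 and 45 on FPKM and 46 without the libraries numbered 3.

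Same-numbered replicates did not deviate together in every pair (30 pairs of libraries, r from −0.309 to 0.335 over 12902 genes, 14 over 0.1), so the numbers were not taken to pair the livers. Of the pairs numbered 3, 5 of 6 were over 0.1. With the number as a replicate block, the members called stayed at 4, 2 and 1 over time and 0 between guides, and the all-gene counts were 125, 61, 26, 27, 72 and 0. Depth limits Gzmk, Ctla4, Pdcd1 and Ifng most, with 0 to 4 counts in each 3-week liver.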
